A study of Danio rerio with 13 samples.

Results

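The data described here are the counts of 82 genes named for proteins of the cytosolic ribosome, among 32105 genes counted in the zebrafish brain. The genes were taken by symbol (*rpl* or *rps* with a number, *rpsa* and the *rplp* stalk genes, without the *rps6k* kinases), from the 26269 genes that had a symbol. By symbol, 47 were large subunit and 35 small subunit genes, under 78 distinct symbols because some symbols belonged to a pair of genes. Of these, *rps19bp1* is not itself part of the ribosome, and *rpl7l1* is known in other species as an assembly factor. The study sequenced RNA from the brains of 13 male zebrafish of the AB strain, all 3 months old, with 1 library per fish. It used *tert* mutants as a model of ageing through telomere loss, to test whether changes found in human brain disease may be linked to such ageing. It compared fish that were wild type for *tert* (5 fish), *tert*+/- fish (5) and *tert*-/- fish (3). *tert* encodes the protein subunit of telomerase. The mutant allele holds a stop codon within the reading frame, and its mRNA can persist. All fish shared strain, sex and age. The sources used here do not say whether the genotypes were litter mates, and libraries are named by genotype and a replicate number that follows the order of the records.

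As background, each ribosome joins a small subunit, which reads the mRNA, to a large subunit, which forms the peptide bond. Most ribosomal proteins are needed in equal numbers, and their mRNAs share a pyrimidine-rich start that couples their translation to growth signalling through mTOR. Ribosomal protein mRNAs are abundant in most tissues, the brain included, where neurons, glia and vessel cells all make them. Zebrafish kept duplicate copies of some of these genes.

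The libraries held 22008289 to 32380953 counts. Mitochondrially encoded genes took 8.14% to 13.9% of these, with means of 9.42% ± 1.28 (SD, n = 5) for wild type, 11.6% ± 2.0 (SD, n = 5) for *tert*+/- and 10.2% ± 1.25 (SD, n = 3) for *tert*-/- fish. The myelin gene *mbpa*, at a mean of 15133 CPM (counts scaled to a common library size with TMM factors), and the neuronal genes *elavl3* (343 CPM) and *elavl4* (689 CPM) were abundant. *tert* ranged from 1.98 to 3.88 CPM in wild type, 3.61 to 8.80 CPM in *tert*+/- and 3.96 to 10.4 CPM in *tert*-/- libraries. The *tert*+/- range overlapped both others, and for a stop allele the transcript level does not check the genotype. The p-values below set differences between genotypes against the spread between fish. The 3 comparisons share libraries and are not independent of each other.

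The 82 ribosomal protein genes took overlapping shares of the counts in all 3 genotypes. Their summed share was 2.14% ± 0.180 in wild type (SD, n = 5), 2.16% ± 0.183 in *tert*+/- (SD, n = 5) and 2.07% ± 0.225 in *tert*-/- brains (SD, n = 3). In wild type replicates 1 to 5 it was 2.25%, 2.20%, 2.01%, 1.91% and 2.35%. In *tert*+/- replicates 1 to 5 it was 2.37%, 2.25%, 2.06%, 1.89% and 2.21%, and in *tert*-/- replicates 1 to 3 it was 1.84%, 2.06% and 2.29%. The ranges overlapped between every pair of genotypes. *tert*+/- 1 was the highest library and *tert*-/- 1 the lowest. With mitochondrial counts set aside, the shares of nuclear counts averaged 2.37% for wild type, 2.44% for *tert*+/- and 2.30% for *tert*-/- brains. These shares rest on 451205 to 637129 counts per library, so the counting error was small beside the spread between fish. In whole brain RNA, fewer cells of a type and less RNA per cell cannot be told apart.

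Large and small subunit genes kept a nearly fixed proportion. The ratio of summed large to summed small subunit counts lay between 1.61 and 1.64 in all 13 libraries. Its mean was 1.63 ± 0.0106 in wild type (SD, n = 5), 1.62 ± 0.0126 in *tert*+/- (SD, n = 5) and 1.62 ± 0.0151 in *tert*-/- fish (SD, n = 3). When both subunits were expressed as the mean log2 CPM of their genes relative to each gene's own mean, they differed by at most 0.04 within a library. Across the 13 libraries, which share their scaling between both subunits, these levels had a correlation of r = 0.985. Per unit of length, the ratio of summed RPKM (reads per kilobase, scaled by library size) lay between 1.37 and 1.42 in all 13 libraries.

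**Figure D1:**
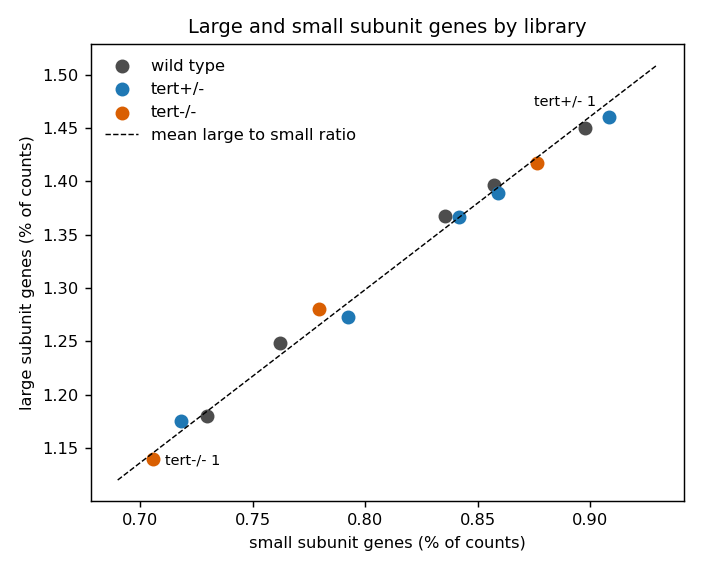
Share of each library's counts taken by the small subunit genes (horizontal axis, %) and by the large subunit genes (vertical axis, %), with 1 point per library coloured by genotype. The points lie along the line of the mean ratio, 1.62, from *tert*-/- 1 at the lower end to *tert*+/- 1 at the upper end, with the genotypes interspersed.

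The members varied together from fish to fish. The mean level of the 82 genes, in log2 CPM relative to each gene's own mean, was 0.02, 0.03, -0.12, -0.13 and 0.08 in wild type replicates 1 to 5. It was 0.18, 0.12, 0.02, -0.08 and 0.07 in *tert*+/- replicates 1 to 5, and -0.21, -0.05 and 0.09 in *tert*-/- replicates 1 to 3. The distance from the lowest to the highest library was 0.39, or 31.4%, and each genotype held libraries above and below the mean. *tert*+/- 1 had the highest value for 58 of the 82 genes and *tert*-/- 1 the lowest for 62. In wild type 4, 0 of the 82 genes were above their own mean, while in wild type 5, of the same genotype, 78 were.

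**Figure D2:**
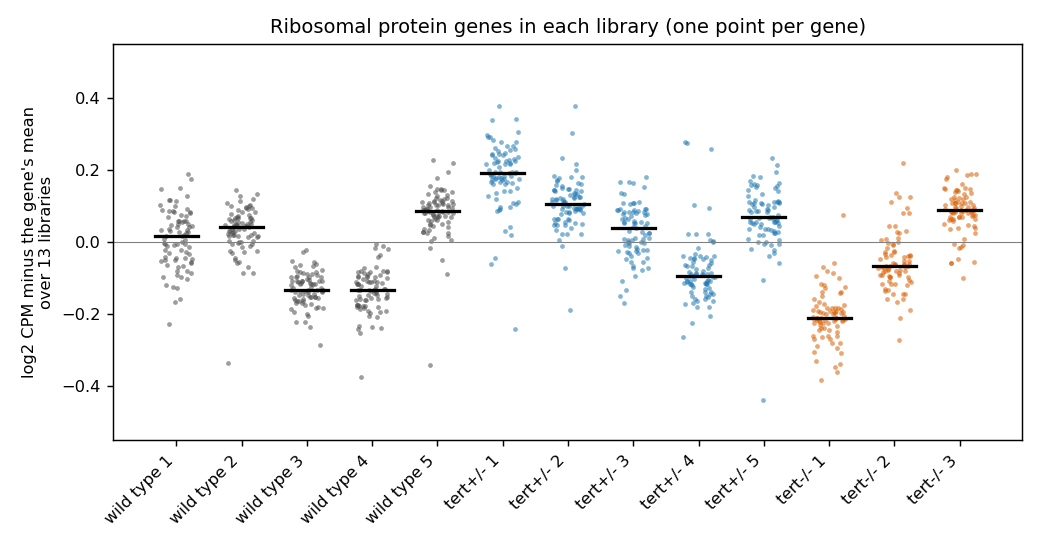
Each point is a ribosomal protein gene in a library, as log2 CPM minus that gene's mean over the 13 libraries, with the median of the library as a bar. The 81 genes drawn leave out *rps11l*, whose low counts spread beyond the axis. The genes of a library sit close together, and whole libraries stand high (*tert*+/- 1) or low (*tert*-/- 1).

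The common movement covered most members. The correlation of a gene with the mean of the other members over 13 libraries had a median of 0.917, and it was above 0.8 for 68 genes and above 0.9 for 45. It was highest for *rps10* (0.981) and *rpl35a* (0.980). For the 1934 other genes with a mean of at least 100 CPM, the median correlation with the same level was 0.074. The SD of log2 CPM over libraries had a median of 0.129 among members and 0.158 among those abundant genes. With the level of the other members removed, the median SD of a member was 0.0574. These correlations are descriptions, over libraries whose genes share depth and scaling.

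Only a few members did not follow the rest. Low correlations belonged to the small subunit entries *rps19bp1* (0.00), *rps11l* (0.31) and *rps27l* (0.32). Of these, *rps19bp1* encodes a protein that binds Rps19 and is not itself part of the ribosome, and it matches the naming rule only through its symbol. *rps27l* is named as a relative of *rps27*, and *rps11l* rested on 6 to 37 counts per library. Above them came *rpl7* (0.63), *rpl29* (0.64), *rpl38* (0.66) and *rpl7l1* (0.67), the last of which is known in other species as a ribosome assembly factor.

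**Figure D3:**
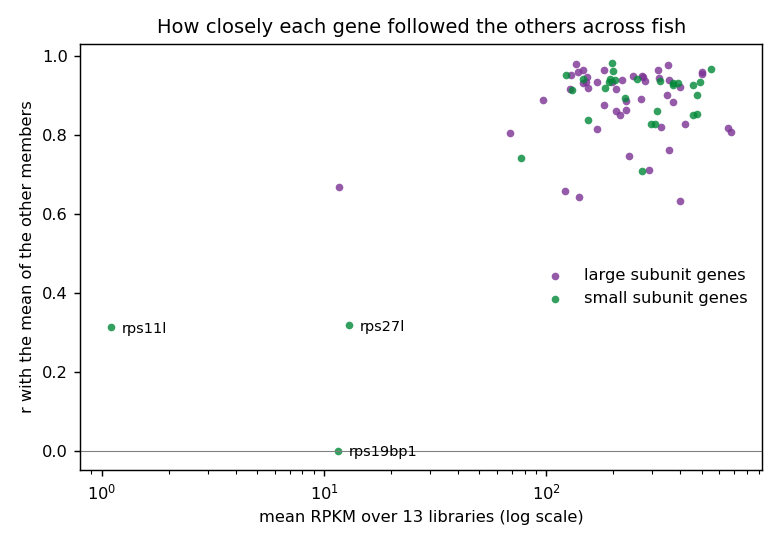
Mean RPKM of each gene over the 13 libraries (horizontal axis, log scale) and its correlation with the mean of the other members (vertical axis), coloured by subunit, for the 77 members reported singly. The 3 named genes with low correlations all lie at 13.0 RPKM or below, and the bulk of genes lies above 100 RPKM, with a median correlation of 0.917 over all members.

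Levels of single members spanned a wide range even per length. In recomputed RPKM, 74 of the 82 genes had means above 100. The highest was *rplp0*, the base of the stalk that recruits translation factors, at 680 ± 68.4 (SD, n = 13). It was followed by *rpl32* at 655 ± 65.7, and by *rps7* at 553 ± 57.3, which takes part in small subunit assembly. *rpl26* (501 ± 42.5) and *rpl35* (500.0 ± 42.1), which sit near the exit of the peptide tunnel, came next and did not differ beyond their spread. Low means belonged to *rps11l* (1.11 ± 0.599), *rps19bp1* (11.6 ± 1.46), *rpl7l1* (11.7 ± 0.830) and *rps27l* (13.0 ± 1.83). *rps19bp1* and *rpl7l1* did not differ beyond their spread. The order depends on length, since gene models of the members ran from 346 to 3569 bases. The rank correlation of length with level was -0.525 for RPKM and 0.382 for CPM without length.

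Whether loss of telomerase was accompanied by a change in these genes was read from *tert*-/- against wild type fish. All 82 members passed the count filter, among 20064 genes tested. With edgeR's quasi-likelihood test, 0 of the 82 were called at an adjusted p under 0.05, and 0 had an unadjusted p under 0.05. Over all tested genes, 0% were called, and 0.832% were higher and 1.31% lower at an unadjusted p under 0.05. DESeq2 also called 0 members and gave 0 with an unadjusted p under 0.05, where 1.14% of all genes were higher and 1.67% lower by DESeq2. Over all genes DESeq2 called 16. By sign, 16 members were higher and 66 lower in *tert*-/- fish, against 50.2% and 49.8% of all genes. Without *rps19bp1* and *rpl7l1*, 14 were higher and 66 lower. Because the members moved together across fish, their signs are not independent. The median log2 fold change was -0.03 (-2.14%), against 0.00 over all genes. Large subunit genes (9 higher, 38 lower, median -0.03) and small subunit genes (7 higher, 28 lower, median -0.03) had the same median. With total count scaling 7 members were higher and 75 lower, with a median of -0.05 while that of all genes was -0.02.

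The direction in *tert*-/- fish rested on single libraries. Without *tert*-/- 1, 75 of the 82 members were higher than in wild type, with a median of 0.06. Without *tert*-/- 3 the median was -0.10 and 4 were higher. Without wild type 5 it was 0.00. Between these genotypes 0 members had values that did not overlap, where 1.06% of all genes were higher and 1.11% lower without overlap. Erythrocyte markers (3 of 3 measured genes higher in *tert*-/- fish, median 0.82) and photoreceptor markers (3 of 3 lower, median -3.11) were apart from 0 in this comparison, and none of their genes was called by edgeR. By library their levels overlapped, at -1.10 to 0.76 in wild type and -1.24 to 1.74 in *tert*-/- fish for erythrocytes, and at -0.80 to 3.34 and -1.42 to -0.61 for photoreceptors. Neutrophil and lymphocyte markers (6 of 6 higher, median 0.36) and radial glia markers (2 of 2 higher, median 0.22) were also one-sided. Skeletal muscle markers had 3 higher and 1 lower (median 0.71), and oligodendrocyte markers 4 higher and 1 lower (median 0.14). Microglia markers had 2 of 4 higher (median 0.07), and neuron markers 2 of 3 (median 0.001). All 13 measured mitochondrially encoded genes were higher (median 0.14), and edgeR called 0 genes of these lists. The part of these in the ribosomal protein values was not tested.

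The lowest p in this comparison belonged to *rps19bp1*, which is not itself part of the ribosome. It measured 12.2, 10.8, 12.7, 12.7 and 14.7 CPM in wild type 1 to 5 and 13.0, 15.9 and 15.4 CPM in *tert*-/- 1 to 3. *tert*-/- 2 and 3 lay above every wild type library, while *tert*-/- 1 lay among them. The log2 fold change was 0.23 ± 0.13 (SE), with an adjusted p of 1 by edgeR. The next genes were lower in *tert*-/- fish. *rpl22*, whose product also binds cellular and viral RNAs in mammals, had a log2 fold change of -0.12 ± 0.08 (SE). Those of *rpl10a* (-0.11 ± 0.11 SE) and *rpl5* ENSDARG00000015862 (-0.10 ± 0.10 SE) were no larger than about their standard errors.

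Fish with a mutant and a functional copy were compared with wild type in the same way. By sign nearly all members were higher in *tert*+/- fish, 80 of 82, against 49.4% of all genes higher and 50.6% lower. Without *rps19bp1* and *rpl7l1* it was 78 of 80. The signs are not independent, because the members moved together across fish. Their mean level overlapped between the genotypes, at -0.13 to 0.08 in wild type and -0.08 to 0.18 in *tert*+/- libraries. The difference of each member was small. The median log2 fold change was 0.09, or 6.27%, with quartiles of 0.06 and 0.11, and the median over all genes was 0.00. Among the 1934 other genes of at least 100 CPM, 1246 were higher and the median was 0.04. The median was 0.08 for large subunit genes (46 of 47 higher) and 0.09 for small subunit genes (34 of 35 higher). The exceptions were *rpl7* (-0.01) and *rps11l* (-0.13).

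None of these differences passed the test. edgeR called 0 members, with the lowest adjusted p at 0.602, and DESeq2 called 0 members. Over all genes edgeR called 0 and DESeq2 called 28. At an unadjusted p under 0.05 edgeR gave 4 members, all higher, which is 4 of 82 against a background of 4.11% of all genes higher and 3.63% lower. DESeq2 gave 8 members, all higher, which is 9.76% of the members against 5.55% of all genes higher and 3.71% lower by DESeq2. By edgeR, 148 of the 1934 other genes of at least 100 CPM were higher and 26 lower at this unadjusted p. The sign count depended on the scaling, because with total count scaling 51 were higher and 31 lower, with a median of 0.01 while that of all genes was -0.08, and 0 had an unadjusted p under 0.05. Without *tert*+/- 1 the median was 0.05, and without *tert*+/- 4 it was 0.12.

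**Figure D4:**
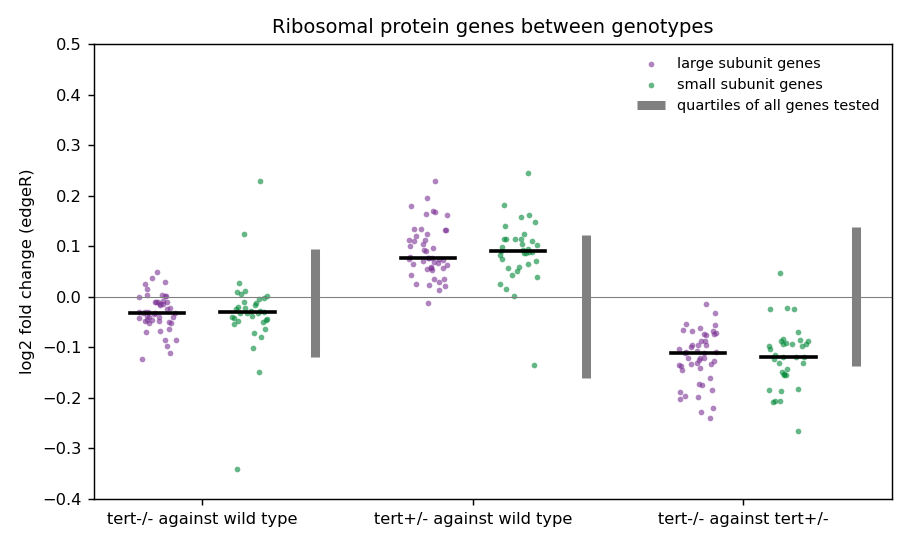
Log2 fold changes by edgeR of the large and small subunit genes in the 3 comparisons, with 1 point per gene, the median as a black bar and the quartiles of all 20064 genes tested as a grey bar. Both subunits sit at about the same height in each comparison, near -0.03, 0.09 and -0.12, within or near the quartiles of all genes.

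The gene with the lowest p in *tert*+/- fish was *rps29*, a small zinc-binding protein of the small subunit head. It measured 159, 159, 149, 142 and 164 CPM in wild type 1 to 5. In *tert*+/- 1 to 5 it measured 208, 186, 184, 158 and 181 CPM, and in *tert*-/- 1 to 3 135, 147 and 175 CPM. All but *tert*+/- 4 exceeded the highest wild type value, and that library lay among the wild type values. The log2 fold change against wild type was 0.25 ± 0.09 (SE), with an adjusted p of 0.602 by edgeR.

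*rpl38*, a large subunit protein that in the mouse is needed for translation of some Hox mRNAs, had values in which *tert*+/- and wild type did not overlap. It measured 115, 128, 120, 120 and 133 CPM in wild type 1 to 5. In *tert*+/- 1 to 5 it measured 144, 139, 144, 138 and 133 CPM, and in *tert*-/- 1 to 3 107, 133 and 125 CPM. The lowest *tert*+/- and the highest wild type library were nearly level. The log2 fold change was 0.18 ± 0.07 (SE), with an adjusted p of 0.602 by edgeR. *rpl38* and *rplp2* were the only 2 members without overlap, both higher, where 0.852% of all genes were higher and 0.847% lower without overlap.

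*rplp2* encodes a stalk protein that helps to recruit elongation factors. It measured 134, 147, 135, 142 and 142 CPM in wild type 1 to 5. In *tert*+/- 1 to 5 it measured 185, 166, 156, 147 and 147 CPM, and in *tert*-/- 1 to 3 126, 138 and 147 CPM. *tert*+/- 1 stood highest, and *tert*+/- 4 and 5 were close to the highest wild type library. The log2 fold change was 0.20 ± 0.07 (SE, edgeR adjusted p = 0.602). The other stalk genes had log2 fold changes of 0.06 ± 0.10 for *rplp0*, 0.13 ± 0.10 for *rplp1* and 0.16 ± 0.09 for *rplp2l* (SE).

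*rpl29*, a heparin-binding protein of the large subunit, measured 133, 159, 128, 155 and 164 CPM in wild type 1 to 5. In *tert*+/- 1 to 5 it measured 187, 179, 177, 168 and 155 CPM, and in *tert*-/- 1 to 3 122, 169 and 150 CPM. Here 4 *tert*+/- libraries exceeded every wild type library, and *tert*+/- 5 lay among them. The log2 fold change against wild type was 0.23 ± 0.10 (SE, edgeR adjusted p = 0.627). The fifth gene by p was *rps26* ENSDARG00000037071, which lies at the mRNA exit of the small subunit (0.16 ± 0.08 SE, edgeR adjusted p = 0.647).

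Marker lists of other tissues and of brain cells were read beside these genes, and edgeR called 0 of their genes in this comparison. All 5 measured genes of an intestine and pancreas list of 8 were higher in *tert*+/- brains, with a median log2 fold change of 2.17 and a lowest adjusted p of 0.165 by edgeR. Their level per library, relative to each gene's mean, lay between -1.28 and -0.71 in wild type, -0.20 and 2.16 in *tert*+/-, and -1.04 and -0.46 in *tert*-/- libraries. The 6 measured genes of a neutrophil and lymphocyte list of 7 were also all higher, with a median of 1.06 and a lowest adjusted p of 0.602 by edgeR. The levels of that list ran from -0.79 to -0.26 in wild type, -0.29 to 1.49 in *tert*+/- and -0.34 to 0.00 in *tert*-/- libraries. These genes were rare, from 0.575 CPM for *lyz* to 19.7 CPM for *fabp2* in *tert*+/- fish. Skeletal muscle markers had a median of 0.93 (3 of 4 higher), photoreceptor markers of -1.03 (3 of 3 lower) and erythrocyte markers of -0.16 (1 of 3 higher). Among brain cells, oligodendrocyte markers (5 of 5 higher, median 0.17) and radial glia markers (2 of 2 measured from a list of 6 higher, median 0.28) were one-sided. Microglia markers (2 of 4 higher, median 0.03) and neuron markers (1 of 3 higher, median -0.001) were not. Oligodendrocyte levels by library overlapped, at -0.62 (wild type 1) to 0.21 in wild type and -0.23 to 0.31 in *tert*+/- fish. Radial glia levels overlapped too, at -0.29 to 0.05 in wild type and -0.25 to 0.77 in *tert*+/- fish. The 0.77 belonged to *tert*+/- 2, and the next *tert*+/- library stood at 0.12. All 13 measured mitochondrially encoded genes were higher in *tert*+/- fish, with a median of 0.37, and their share of counts differed by 2.18 percentage points (2-sided exact permutation p = 0.0873, adjusted 0.45 over 9 tests). The part of these in the ribosomal protein values was not tested. In a fit without mitochondrially encoded genes 80 members were higher, with a median of 0.10, which does not test that part.

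Sample titles carry numbers, which were grouped here into 3 runs. The number of *tert*+/- 4 lies as far from the end of the middle run as from the next number above it, so that its place in the highest run is a choice. In the middle run (3 wild type and 2 *tert*+/- fish) all 82 members were higher in *tert*+/- fish, with a median difference of 0.14. In the lowest run (1 fish of each) 76 were higher, with a median of 0.18. In the highest run (1 wild type and 2 *tert*+/- fish) only 7 were higher and 75 lower, with a median of -0.09. With *tert*+/- 4 counted in the middle run, a grouping added after seeing the data, 79 were higher there (3 fish of each, median 0.09), and in the highest run (1 fish of each) 36 were higher and 46 lower, with a median of -0.01. With the run as a covariate, 77 members were higher in all libraries together, with a median of 0.07, and with *tert*+/- 4 in the middle run 79 were, with a median of 0.09. For *tert*-/- against wild type, 72 members were lower and 10 higher in the middle run (2 against 3 fish), with a median of -0.06. In the highest run (1 fish of each) 46 were higher and 36 lower, with a median of 0.006. With the run as a covariate 56 were lower and 26 higher, with a median of -0.02. With *tert*+/- 4 in the middle run 64 were lower and 18 higher, with a median of -0.02. What the title numbers stand for is not given in the sources used here.

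The comparison of *tert*-/- with *tert*+/- brains completes the design. By sign 81 of the 82 members were lower in *tert*-/- fish, against 50.6% of all genes lower and 49.4% higher. The exception was *rps19bp1* (0.05), which is not itself part of the ribosome. Without it and *rpl7l1* all 80 were lower. The signs are not independent here either. The mean level of the members overlapped, at -0.08 to 0.18 in *tert*+/- and -0.21 to 0.09 in *tert*-/- libraries. The median log2 fold change was -0.12, or -7.79%. It was -0.11 for large subunit and -0.12 for small subunit genes. edgeR called 0 members, with a lowest adjusted p of 0.975, and DESeq2 called 0 members. Over all genes edgeR called 0 and DESeq2 called 18. At an unadjusted p under 0.05 edgeR gave 7 lower members and DESeq2 gave 9, also lower, where 2.43% of all genes were lower and 2.19% higher by edgeR and 3.03% and 2.35% by DESeq2. By edgeR, 53 of the 1934 other genes of at least 100 CPM were lower and 23 higher at this unadjusted p. Only *rpl38* had values without overlap, with *tert*-/- lower, against 1.23% of all genes lower and 1.17% higher. Within the middle run of title numbers (2 fish of each) 81 members were lower, and in the highest run (1 *tert*-/- and 2 *tert*+/- fish) 73 were higher. With *tert*+/- 4 counted in the middle run these became 80 lower and, with 1 fish of each, 50 higher. With the run as a covariate, 78 members were lower in all libraries together, with a median of -0.08. With *tert*+/- 4 in the middle run 80 were, with a median of -0.11. The 5 intestine and pancreas markers (median -2.47) and the 6 neutrophil and lymphocyte markers (median -0.78) were all lower in *tert*-/- fish. So were the 3 photoreceptor markers (median -2.08), the 4 skeletal muscle markers (median -0.45) and the 13 mitochondrially encoded genes (median -0.25). The 3 erythrocyte markers were all higher (median 0.94). edgeR called 0 genes of these lists, and their part in the ribosomal protein values was not tested.

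The 7 members included the 3 genes *rplp2* (-0.23 ± 0.09 SE, edgeR adjusted p = 0.975), *rps29* (-0.27 ± 0.10 SE, edgeR adjusted p = 0.975) and *rpl38* (-0.20 ± 0.08 SE, edgeR adjusted p = 0.975). They share their *tert*+/- libraries with the comparison above. *rpl22* measured 191, 178, 169, 149 and 174 CPM in *tert*+/- 1 to 5 and 143, 155 and 152 CPM in *tert*-/- 1 to 3. All *tert*-/- values were at the low end, and *tert*+/- 4 lay among them. The log2 fold change of *rpl22* was -0.20 ± 0.08 (SE, edgeR adjusted p = 0.975). Those of *rps26* ENSDARG00000037071 (-0.21), *rpl35* (-0.18) and *rpl36* (-0.17) also had an adjusted p of 0.975 by edgeR.

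The size of the difference between the mutant genotypes depended on single libraries. Without *tert*-/- 1 the median was -0.04, and 0 members had an unadjusted p under 0.05 by edgeR. In that fit 1.97% of all genes were lower and 1.53% higher at this p. Without *tert*-/- 3 the median was -0.20, and 18 members had such a p, all lower. There 3.11% of all genes were lower and 2.62% higher.

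In 6 paralogue pairs the balance between copies differed widely from pair to pair and little from fish to fish. A pair was taken where symbols were equal or differed only by a closing l or l1 or by the number after a point, and 5 of the pairs lay among the 82 genes. In every pair the genotypes overlapped. Reads that match both copies of a close pair could have been lost or split by the counting, so that these shares are uncertain where copies are alike.

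The most uneven of them was *rpl7l1*, which took 5.03% ± 0.485 (SD) of its pair's counts beside *rpl7* over 13 libraries. Its genotype means were 4.88% for wild type, 5.07% for *tert*+/- and 5.21% for *tert*-/- fish.

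The other pairs were closer to balance. *rpl22l1*, which can replace *rpl22* in the mouse, took 24.8% ± 1.32 (SD) of its pair. *rps26* ENSDARG00000037071 took 43.3% ± 1.06 (SD), with a mean of 44.2% for *tert*+/- fish, 42.9% for wild type and 42.6% for *tert*-/- fish. *rpl5* ENSDARG00000020197 took 45.8% ± 1.14 (SD), *rplp2l* 48.0% ± 1.66 (SD) and *rps27.2* 49.9% ± 2.27 (SD). The copies of *rpl5*, whose product joins Rpl11 before assembly into the large subunit, had a correlation of 0.93 over the 13 libraries, and those of *rps26* of 0.90. Gene models differ in length, and per length *rps27.2* came to 34.7%.

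**Figure D5:**
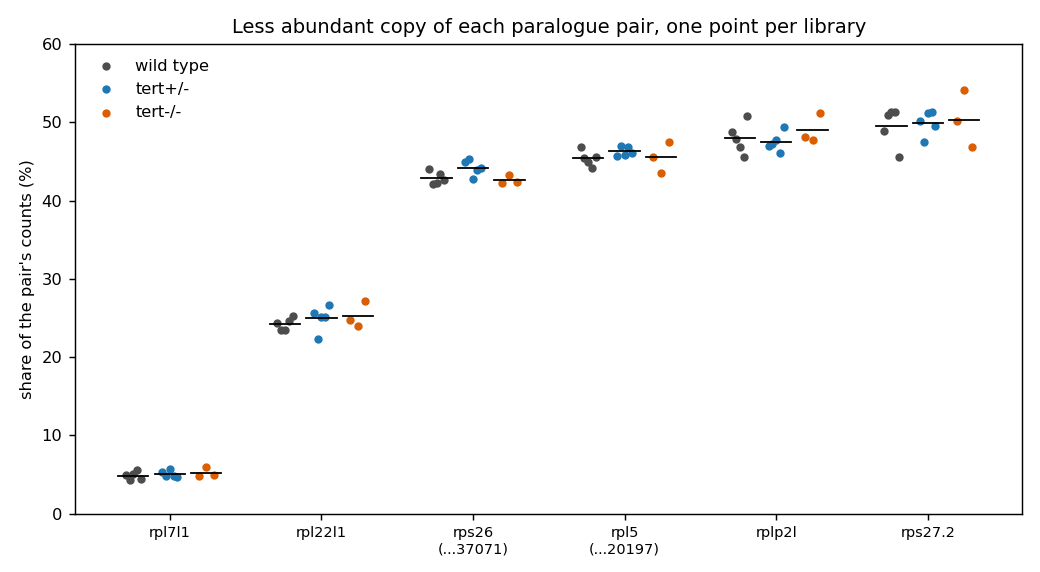
Share of the pair's counts (%) taken by the less abundant copy in 6 paralogue pairs, with 1 point per library coloured by genotype and a bar at the mean of each genotype. Shares run from 5.03% for *rpl7l1* to 49.9% for *rps27.2*, and the genotypes overlap in each pair.

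Another 6 genes for ribosomal or ribosome-bound proteins have symbols outside the naming rule. They were *rps27.1*, *rps27.2* and *rpsa2*, *fau*, whose ribosomal protein is made fused to a ubiquitin-like part, *faub*, and *rack1*, a signalling scaffold on the small subunit. All 6 were higher in *tert*+/- than in wild type fish, with a median log2 fold change of 0.08, and all 6 were lower in *tert*-/- than in *tert*+/- fish, with a median of -0.12. None was called by edgeR. *rps27.2* had the lowest p, at 0.15 ± 0.07 (SE, edgeR adjusted p = 0.631) against wild type and -0.18 ± 0.08 (SE, edgeR adjusted p = 0.975) between the mutants. The correlation with the level of the 82 members was 0.75 to 0.92 for 5 of them and -0.18 for *faub*, which was the least abundant at 20.4 CPM.

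Genes that act with the ribosome were read from lists, which were chosen with earlier results of these data known. Of 16 listed elongation factor genes 11 were measured, and 7 were higher in *tert*+/- than in wild type fish, with a median log2 fold change of 0.05. The initiation list, which also holds the repressor gene *eif4ebp1*, had 29 of 48 genes measured. Of these 25 were higher, with a median of 0.09, which equals that of the ribosomal proteins. They were led by *eif1axb* (0.18 ± 0.07 SE, edgeR adjusted p = 0.602) and *eif1* (0.21 ± 0.08 SE, edgeR adjusted p = 0.604), both of which act in start codon selection. Of 11 further genes listed as having a pyrimidine-rich mRNA start, which was not examined here, 10 were measured, under 11 identifiers because *vim* has a pair. *fau* and *rack1* from the paragraph above are among them. Of these 11, 9 were higher and the median was 0.05. Of 87 ribosome assembly genes 82 were measured and 64 were higher, with a median of 0.06, led by *utp11* (0.26 ± 0.11 SE, edgeR adjusted p = 0.604) and *gar1* (0.27 ± 0.12 SE, edgeR adjusted p = 0.627). In *tert*-/- against wild type fish 7 of 11 elongation, 21 of 29 initiation and 49 of 82 assembly genes were higher, with medians of 0.01, 0.03 and 0.02. Of the 11 further pyrimidine-rich genes 3 were higher and 8 lower, with a median of -0.02. Between the mutants 7, 21 and 55 of them were lower in *tert*-/- fish, with medians of -0.04, -0.05 and -0.03, and 10 of the 11 pyrimidine-rich genes were lower, with a median of -0.07. Of all genes, 49.4% were higher in *tert*+/- and 50.2% in *tert*-/- than in wild type fish, and 50.6% were lower in *tert*-/- than in *tert*+/- fish. Among the 1934 genes of at least 100 CPM that are not members, 1246 and 1121 were higher and 1168 lower in the same comparisons. Their medians were 0.04, 0.02 and -0.03. edgeR called 0 of the genes on these lists in the 3 comparisons.

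The 2 genes with the lowest p on each list were named. In *tert*+/- against wild type fish they included *eif5a* (0.12 ± 0.08 SE), *eif5a2* (0.12 ± 0.11 SE), *vim* ENSDARG00000044501 (0.34 ± 0.19 SE) and *naca* (0.08 ± 0.06 SE), with adjusted p by edgeR of at least 0.680. Between *tert*-/- and wild type fish those of the assembly list were *bop1* (-0.24 ± 0.09 SE), an assembly factor of the large subunit, and *dkc1* (0.23 ± 0.13 SE), whose product also binds telomerase RNA in humans. Those of the initiation list were the poly(A)-binding protein gene *pabpc1b* (0.21 ± 0.11 SE) and *eif4eb* (0.23 ± 0.14 SE), and those of the elongation list *eef2a.2* (0.82 ± 0.62 SE) and *eef2a.1* (0.14 ± 0.14 SE). Those of the regulators were the initiation repressor gene *eif4ebp3* ENSDARG00000054916 (-0.36 ± 0.20 SE) and *akt1* (0.19 ± 0.16 SE), and those of the pyrimidine-rich genes *gas5* (-0.34 ± 0.18 SE), a host of small nucleolar RNAs, and *npm1a* (0.17 ± 0.18 SE). Between the mutants the elongation genes were *eif5a* (-0.16 ± 0.09 SE) and *eef2a.2* (1.08 ± 0.63 SE), and the initiation genes *eif1b* (-0.21 ± 0.11 SE) and *eif1* (-0.18 ± 0.10 SE). The assembly genes were *rsl24d1* (-0.22 ± 0.08 SE) and *rrn3* (-0.19 ± 0.09 SE), a factor for rRNA transcription, and the pyrimidine-rich genes *gas5* (-0.37 ± 0.18 SE) and *hnrnpa1a* (0.13 ± 0.07 SE). Each of these values between *tert*-/- fish and either other genotype is a log2 fold change whose adjusted p by edgeR was at least 0.957.

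Some of these genes followed the ribosomal proteins across fish. Over the 13 libraries the correlation with the level of the 82 members was 0.93 for *naca*, which binds nascent chains at the ribosome, and 0.93 for the initiation factor subunit *eif3i*. It was 0.82 for the elongation factor *eef1a1l1* and 0.81 for *tpt1*. It was most negative on these lists for *sbds* (-0.82), which acts in the last steps of large subunit assembly, followed by *hnrnpa1a* (-0.69), an RNA-binding protein gene, and the helicase gene *eif4a2* (-0.60).

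Regulators of ribosomal protein synthesis had no common direction. Of 35 listed genes 25 were measured, under 27 identifiers, of which 16 were higher in *tert*+/- than in wild type fish with a median of 0.02. The lowest p belonged to *akt1*, a kinase upstream of mTOR, at a mean of 4.03 ± 0.48 CPM in wild type (SD, n = 5), 2.70 ± 0.455 CPM in *tert*+/- (SD, n = 5) and 4.59 ± 0.164 CPM in *tert*-/- fish (SD, n = 3). Its log2 fold change was -0.57 ± 0.15 (SE, edgeR adjusted p = 0.602) in *tert*+/- against wild type fish. In *tert*-/- against *tert*+/- fish it was 0.76 ± 0.16 (SE, edgeR adjusted p = 0.957). The second genes by p were *eif4ebp3* ENSDARG00000041607 against wild type (0.55 ± 0.31 SE, edgeR adjusted p = 0.682) and *rhebl1* between the mutants (-0.15 ± 0.10 SE).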

How the data were processed

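Per the labels, the authors converted reads with bcl2fastq 1.8.4, aligned them to GRCz10 with STAR 2.4.1d and counted reads over Ensembl genes with featureCounts 1.4.6-p4, while the paper's methods name other tools. The annotation release is not given in the sources used here. The deposited counts are raw and were used as deposited, with 0 columns left unmapped. The RPKM values deposited by the authors had library totals applied in the wrong order. Among 172731 values of 15019 genes, 8.53% gave a gene length within 0.2% of the gene's median with each library's own total, and 100% did with the totals repeated down the table. A ratio of these values between libraries could be off by at most 2.16-fold. RPKM was therefore recomputed from the counts with TMM factors and the gene lengths recovered from that table.

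Genes with enough counts (filterByExpr, minimum 10) were tested in edgeR 4.0.16 (R 4.3.3) with TMM factors and the quasi-likelihood test over all 13 libraries, with Benjamini-Hochberg adjustment over 20064 genes and a threshold of 0.05. The SE of a log2 fold change was taken as its absolute value over the square root of the F statistic. DESeq2 1.42.0, other scalings, filters, groupings of samples and the leaving out of each library were alternatives. Further alternatives, chosen after seeing the data, were a background of genes of at least 100 CPM, leaving out the 4 members that followed the others least, non-overlap as a call rule, another grouping of title numbers, and leaving out *tert*+/- 1 and *tert*-/- 1 together. Members and lists were chosen with earlier results of these data known, so the members as a set have no test. Genes named are the 5 with the lowest p per comparison, the 5 highest and 5 lowest by RPKM, the paralogue pairs, ribosomal genes outside the rule and the 2 with the lowest p per related list and comparison, with other members named after their values were seen. Some genes that the rules would name are not reported here singly or as pairs, and ribosomal protein genes among them remain in the sums and counts over all 82. Gene symbols were found for 81.8% of identifiers.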

Additional observations from a re-analysis of the deposited data

Results flagged for a closer look

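Of 78 groups of 5 libraries tested for a library that stands apart, 1 held such a library, where chance flags about 1 in 20 groups. *rps11l* in *tert*+/- 2 was at 1.43 CPM, with the nearest of the other *tert*+/- libraries at 0.446 CPM.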

How the results depend on the processing

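No paired analysis was possible because replicate numbers follow the order of the records and pair no fish. No member was called at an adjusted p under 0.05 under any alternative. Leaving out each library in turn gave a median log2 fold change from -0.10 to 0.057 and 0 to 1 members with an unadjusted p under 0.05 for *tert*-/- against wild type, 0.05 to 0.12 and 2 to 13 for *tert*+/- against wild type, and -0.20 to -0.04 and 0 to 18 for *tert*-/- against *tert*+/-. Against wild type these members were all higher, where 0.686% to 1.95% of all genes were higher in *tert*-/- and 2.95% to 4.91% in *tert*+/- fish. Between the mutants they were all lower, where 1.88% to 3.11% of all genes were lower. The 4 such members of *tert*+/- against wild type became 8 with DESeq2, 8 with RLE factors, 8 without mitochondrially encoded genes, 13 with only both groups fitted, 9 with the run of titles as covariate and *tert*+/- 4 in the middle run, and 0 with total count scaling. All were higher, where 5.55%, 5.05%, 4.72%, 5.24%, 4.92% and 1.76% of all genes were higher in these settings, against 4.11% in the fit reported. The 7 of *tert*-/- against *tert*+/- became 1 with only both groups fitted, 3 with the run of titles as covariate, 12 with *tert*+/- 4 in the middle run and 0 with total count scaling, where 1.59%, 2.60%, 2.94% and 1.43% of all genes were lower, against 2.43%. *tert*+/- 1 and *tert*-/- 1 were picked as the highest and the lowest library for these genes, so that the direction of the shift is set by the choice. Without both, *tert*-/- against wild type reversed to a median of 0.053 with 1 such member, which was higher. *tert*-/- against *tert*+/- then had 0 such members. In that fit 2.33% of all genes were higher and 4.9% lower at this p in the first comparison. In the second, 1.55% were higher and 2.78% lower. The large to small ratio in *tert*-/- against wild type went from -0.134% to 0.117% with summed RPKM. Per length, the minor copy's share became 2.87% for *rpl7l1*, 43.0% for *rplp2l* and 34.7% for *rps27.2*, through gene length. Other causes were not tested. With 3 to 5 fish a group and a median standard error of 0.08 to 0.10 on the log2 scale, differences of the size seen here could not be told from the spread between fish.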
